A study of Mus musculus with 15 samples.

Results

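This report describes 9 genes of the intermediate filament network in mouse gastrocnemius, the main muscle of the calf. They were the simple epithelial keratins Krt18, Krt8 and Krt19, the filament genes Des (desmin), Vim (vimentin), Synm (synemin) and Nes (nestin), the nuclear lamina gene Lmna (lamin A/C) and the cytolinker Plec (plectin). All probes carrying one of these symbols in the platform annotation were taken, which gave 29 of the 25697 probes on the array and 9 of the 16593 genes it names. The genes were picked with earlier results of the same arrays known, Krt18 and Krt8 in view of their level in old muscle, so the comparison of old with young is a description of them and carries no test.

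Total RNA came from male C57BL/6 mice, 1 animal and 1 Illumina MouseRef-8 bead array per sample, with 5 mice in each group. The young mice were 5 months old, the middle-aged mice 17 months and the old mice 28 months, and the mice were fed house chow without restriction. The samples held 1 sex and 1 strain, so nothing here speaks for females or other strains. A probe was counted as detected on an array at a detection p under 0.05, where this p is the share of the array's negative control signal at least as bright as the probe.

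Intermediate filaments are rope-like polymers that give cells mechanical strength. In striated muscle desmin rings the Z-discs and ties myofibrils to each other, to the nucleus and to costameres, the sites where the fibre membrane is anchored. Synemin co-assembles with desmin, plectin cross-links the filaments to Z-discs, membrane and mitochondria, and lamins form the mesh beneath the nuclear envelope. The Krt8 protein pairs with that of Krt18 in the filaments of simple epithelia such as liver and gut, that of Krt19 is a further partner of Krt8, vimentin belongs to mesenchymal cells, and nestin marks immature fibres and the neuromuscular and myotendinous junctions.

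The stretches upstream of 3 genes are shown because Krt18 and Krt8 were the pair that was higher in old muscle, while Des stands for the filament of the fibre itself. Each is the 250 bases before the gene's start, 5′ to 3′ on the gene's strand, from RefSeq on build GRCm38.p6. Capitals mark matches to 3 motifs on either strand. They are the E-box core, which reads CANNTG. They are further the GC box, read here as GGGCGG. The last is the TATA box, read here as TATAAA. Krt18 lies on the plus strand at chr15:102027966-102028215, Krt8 on the minus strand at chr15:102004343-102004592 and Des on the plus strand at chr1:75360042-75360291.
Krt18: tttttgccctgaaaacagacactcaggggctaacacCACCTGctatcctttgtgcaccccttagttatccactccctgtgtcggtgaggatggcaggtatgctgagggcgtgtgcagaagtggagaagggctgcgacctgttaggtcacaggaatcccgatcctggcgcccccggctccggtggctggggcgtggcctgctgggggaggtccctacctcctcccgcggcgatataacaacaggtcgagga
Krt8: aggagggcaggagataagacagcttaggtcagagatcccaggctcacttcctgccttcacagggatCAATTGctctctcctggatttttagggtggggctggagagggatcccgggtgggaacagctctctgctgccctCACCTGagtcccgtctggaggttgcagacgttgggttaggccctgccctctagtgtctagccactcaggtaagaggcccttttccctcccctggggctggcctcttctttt
Des: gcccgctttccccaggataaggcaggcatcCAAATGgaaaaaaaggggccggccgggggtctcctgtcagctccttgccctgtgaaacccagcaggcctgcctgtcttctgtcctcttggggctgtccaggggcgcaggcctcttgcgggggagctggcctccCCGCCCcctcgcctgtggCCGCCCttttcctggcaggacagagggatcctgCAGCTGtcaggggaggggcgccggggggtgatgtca

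Both keratin genes thus sit on chromosome 15 near each other. Krt18 had 1 match to CANNTG and Krt8 had 2, a motif that 66.2% of 32851 promoter windows of the same length hold. Des had 2 matches to CANNTG and 2 to GGGCGG, a letter string of 32.7% of windows. The motif TATAAA (12.4% of windows) occurred in none of these 3 windows, and TGANTCA (6.75%), the CArG box (1.47%) and the MEF2 site (2.92%) occurred in none of the members' windows. In all 7 members had a promoter entry, and Krt19 and Plec had none. A match is a description of letters and not of a bound site.

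The 15 arrays were alike in the number of probes detected, 11534 to 12593, and in median raw intensity, 74.7 to 93.8 arbitrary units. Their mean raw intensity differed more, from 327.5 on old replicate 2 to 620.9 on middle-aged replicate 4. The lowest raw intensity on an array was 55.7 to 59.3 in old muscle and 47.3 to 54.2 in the younger groups. The raw floor was thus higher on every old array, which cannot be told apart from age, and its cause was not tested. The tissue label was checked against fibre markers, and all 13 muscle fibre genes on the array were detected on every array, and 0 of them passed the test between any ages. Old replicate 5 stood apart from the other old arrays in genes of slow fibres and in Myh1, a point seen in the values rather than sought. Tnni1, the slow troponin I, had a log2 level of 5.82 there against 8.60 to 9.69 on the other old arrays, and Myh1, the fast myosin IIx, had 9.75 against 12.28 to 13.09. For Synm, Lmna and Des, whose levels it moved most, differences are given with and without it. Levels below are log2 of background-corrected, quantile-normalised intensity, and differences are on that scale with the standard error of the fit.

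Krt18 was at background on every young and middle-aged array and clearly above it on every old one. Its raw intensity on young replicates 1 to 5 was 77.0, 73.9, 68.0, 74.4 and 70.2 arbitrary units, with detection p from 0.406 to 0.793. On middle-aged replicates 1 to 5 it was 71.8, 72.3, 73.9, 84.3 and 75.3, with detection p from 0.172 to 0.627. On old replicates 1 to 5 it was 198.4, 150.1, 252.9, 198.5 and 189.8, and the detection p was 0 on all 5. The lowest old array thus lay well above the highest of the 10 younger ones. The old mean log2 level was 7.13 ± 0.35 (SD, n = 5) against 4.41 ± 0.05 in young and 4.50 ± 0.08 in middle-aged muscle (both SD, n = 5). As the younger groups gave no detected signal, the fold is a bound taken against their background, on the background-corrected scale. On that scale the old mean was at least 4.72-fold higher than young and at least 4.78-fold higher than middle-aged muscle.

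Krt8, the partner of Krt18, was just above background in young muscle and higher in old muscle. Raw intensity on young replicates 1 to 5 was 97.3, 86.8, 86.4, 95.4 and 91.3, with detection p between 0.0163 and 0.0464. On middle-aged replicates 1 to 5 it was 76.1, 82.5, 87.2, 105.1 and 90.4, and the probe was detected on 3 of the 5. On old replicates 1 to 5 it was 126.7, 119.4, 237.6, 119.0 and 150.0, with a detection p of at most 0.00125. The old range did not overlap either younger range. The log2 level of old muscle was 1.34 ± 0.23 above young, a 2.53-fold difference, and 1.44 ± 0.23 above middle-aged, a 2.72-fold difference. As 2 of the middle-aged arrays did not detect the probe, the latter fold is set in part against background. The standard error is shared over the 3 age groups, while the SD was 0.71 in old, 0.13 in young and 0.11 in middle-aged muscle. Without old replicate 3, the highest array for both keratins, the differences were 1.04 and 1.14.

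Krt19 was not detected on any of the 15 arrays. Its raw intensity ran from 61.5 to 69.8 in young, from 59.5 to 74.1 in middle-aged and from 71.8 to 76.0 in old muscle, with detection p between 0.264 and 0.987. Its old raw range lay above its young one although no array detected it, and the raw floor of the old arrays was higher too. Krt19 gave no value to compare, and its 1 probe leaves a transcript that the probe does not match unmeasured. The 3 keratins therefore differed in old muscle, with Krt18 and Krt8 above background and Krt19 at it.

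**Figure D1:**
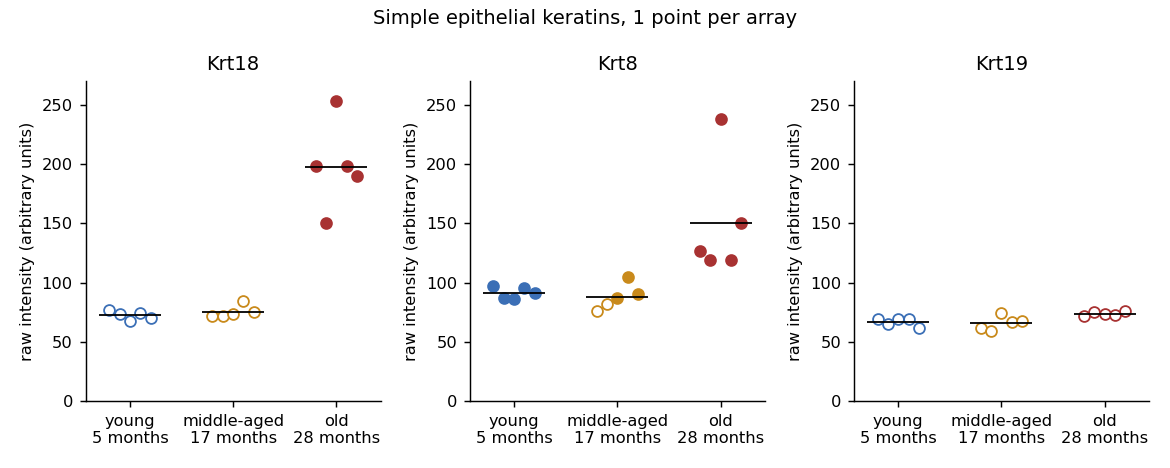
Raw intensity in arbitrary units of the Krt18, Krt8 and Krt19 probes by age group, 1 point per array, filled where the probe was detected and open where it was not, with a line at each group mean. Krt18 is filled on the 5 old arrays alone, Krt8 is highest on old replicate 3 at 237.6, and Krt19 is open throughout.

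The size of both keratin differences depended on the background correction. With raw intensities normalised by quantiles and no correction, Krt18 was 1.42 and Krt8 0.66 higher on the log2 scale in old than in young muscle, and 1.36 and 0.70 higher in old than in middle-aged muscle. For Krt18 these values lie below the bounds above, which hold for the corrected scale only. The direction was upward at both genes in every alternative run. Bulk tissue holds several cell types, and fewer cells of a type cannot be told apart from less RNA per cell, nor more cells from more RNA.

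Across the family, 2 of the 8 members tested were called in old against young muscle, both higher (Krt18 and Krt8), beside 3.31% of all 9470 features. Groups did not overlap at the same 2 members, beside 4.67% of all features. The median difference of the 8 members was 0.24 against -0.02 over all features. These counts follow from how the genes were picked, and nothing is read from them.

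Old against middle-aged muscle shares its old arrays with the comparison above. There, 2 members were called, Krt18 and Krt8, beside 0.317% of all features, and the same 2 did not overlap, beside 1.5% of all features. Both were picked for their level on these old arrays, and Krt18 passed the detection filter through them alone. The counts restate that choice, so nothing is read from them and no p is given. The other 6 tested members were not called, with limma adjusted p from 0.314 for Synm to 0.998 for Vim. The median difference over the members was 0.12 against -0.02 over all features.

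Middle-aged against young muscle asks whether any of these genes had moved by 17 months, and none of the 8 members passed the test. The count was 0 of 8 in limma after adjustment and 0 of 8 at an unadjusted p under 0.05, beside 0.0106% of all features called, and 0 members had groups that did not overlap, beside 2.46%. For Krt8 the difference was -0.10 with a 95% interval of -0.60 to 0.39 (limma adjusted p = 0.9996). The fit shares its spread over the 3 age groups, and the SD of Krt8 was 0.13 in young, 0.11 in middle-aged and 0.71 in old muscle. The old arrays thus widen that interval, though they are not part of this comparison. For Krt18 both groups lay at background, so no fold exists. The largest difference among the standing probes was that of Nes, 0.27 with an interval of -0.03 to 0.57 (limma adjusted p = 0.987). The intervals leave room for changes of that order at the other genes, so the absence of a call does not show equal levels.

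Krt18 was thus at background at 5 and at 17 months and above it at 28 months, and only a bound can be put on its step. In the test of the late step against the early step, 1 member was called, Krt18, beside 0.0211% of all features. It was picked for its old arrays and passed the detection filter through them alone, so that call restates the choice and nothing is read from it. Of the members other than the keratins, none passed that test, with limma adjusted p from 0.973 to 0.986.

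**Figure D2:**
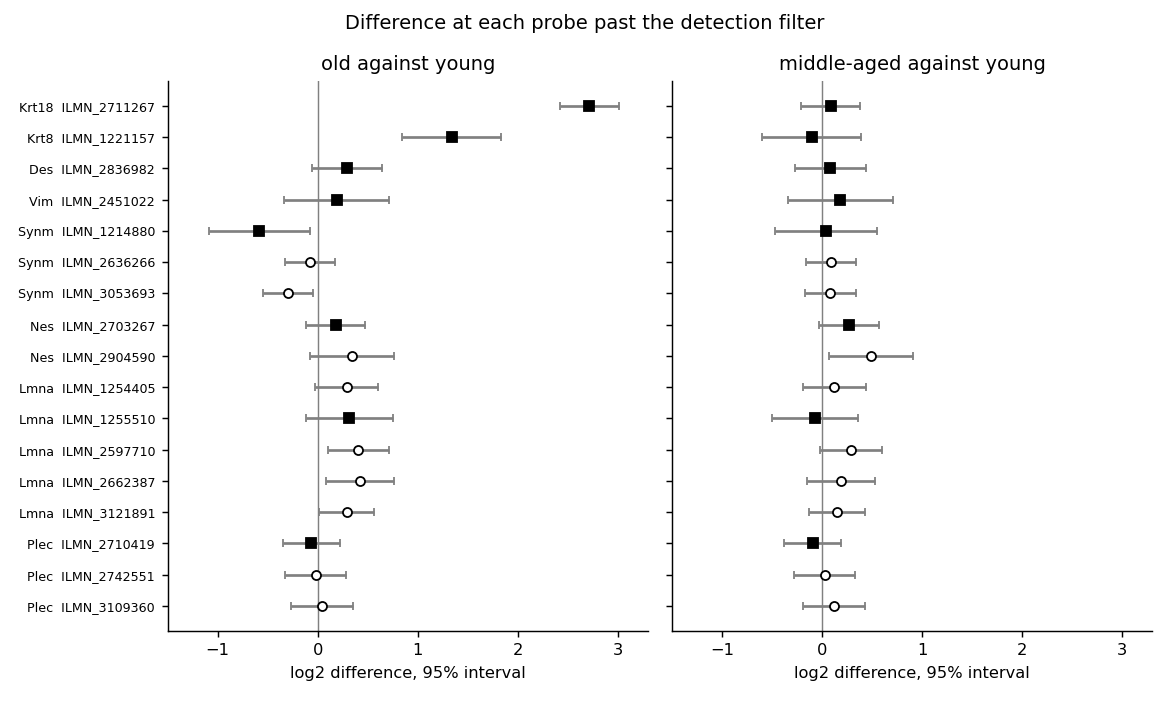
Log2 difference with its 95% interval at each of the 17 probes past the detection filter, old against young on the left and middle-aged against young on the right, with filled squares for the probe that stands for its gene. Krt18 at 2.71 and Krt8 at 1.34 lie far to the right in the left panel and not in the right one. The Krt18 value is a fitted difference against a group at background, not a measured fold.

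Desmin, the main filament of the fibre, was not called in any comparison. The log2 level on young replicates 1 to 5 was 12.84, 12.91, 12.80, 12.61 and 12.99. On middle-aged replicates 1 to 5 it was 13.004, 12.77, 13.08, 12.35 and 13.37, and on old replicates 1 to 5 it was 13.07, 13.40, 13.37, 13.09 and 12.67. Old replicates 1 to 4 exceeded the top young value, while old replicate 5 lay within the young range. The difference was 0.29 ± 0.17 between old and young muscle and 0.21 ± 0.17 between old and middle-aged (limma adjusted p = 0.632). Without old replicate 5 they were 0.41 and 0.32 (limma adjusted p = 0.276 for the latter).

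Vimentin varied between animals more than between ages. Its log2 level on young replicates 1 to 5 was 8.15, 8.36, 8.88, 8.75 and 8.70, on middle-aged replicates 8.71, 8.34, 8.46, 8.44 and 9.80, and on old replicates 8.94, 9.34, 8.37, 8.52 and 8.61. The ranges overlapped throughout, and the highest value belonged to middle-aged replicate 5. The difference was 0.19 ± 0.25 between old and young and 0.00 ± 0.25 between old and middle-aged muscle (limma adjusted p = 0.998). Without middle-aged replicate 5 the latter was 0.27 (limma adjusted p = 0.50), and middle-aged against young muscle went from 0.18 to -0.08.

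Nestin, measured by 2 probes, was slightly higher in middle-aged than in young muscle without passing the test. The log2 level at the brighter probe was 7.76, 7.56, 7.94, 7.53 and 7.78 on young, 8.35, 7.94, 7.70, 8.01 and 7.91 on middle-aged and 7.80, 8.23, 7.87, 7.74 and 7.81 on old replicates 1 to 5. The groups overlapped. At the dimmer probe the middle-aged level was 0.49 ± 0.20 above young (limma adjusted p = 0.936 with every probe as a feature), and young replicate 2 was its lowest array at 4.88.

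Synemin was lower on 4 of the 5 old arrays and highest of all on old replicate 5. At the brightest of its 3 probes the log2 level on young replicates 1 to 5 was 13.37, 13.09, 13.31, 13.19 and 13.25, and on middle-aged replicates 13.43, 13.52, 13.13, 13.60 and 12.72. On old replicates 1 to 5 it was 12.58, 12.26, 12.39, 12.22 and 13.84. Old replicates 1 to 4 lay below all 10 younger arrays, and old replicate 5, the array with low slow-fibre genes, lay above them. With all arrays the difference from middle-aged muscle was -0.62 ± 0.24 and did not pass the test (limma adjusted p = 0.314).

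Leaving out old replicate 5 turned that result into a call. Without it, the difference was -0.92 against middle-aged muscle (limma adjusted p = 0.00387), and -0.88 against young muscle, compared with -0.58 ± 0.24 on all arrays. Over all alternatives the adjusted p against middle-aged muscle ran from 0.00387 to 0.601, and weighting the arrays by their fit gave -0.89 (limma adjusted p = 0.0129). In these 2 settings calls rose throughout the array. Against middle-aged muscle, 30 of all features were called on all arrays, 313 without old replicate 5 and 468 with weights. The middle probe of Synm differed by -0.17 ± 0.12 between old and middle-aged muscle (limma adjusted p = 0.589 with every probe as a feature). The dimmest, near background and detected on 3 of 5 old arrays, differed by -0.38 ± 0.12 (adjusted p = 0.23 in the same fit). All 3 probes were highest among old arrays on old replicate 5, and their r with one another over the 15 arrays was 0.51 to 0.824.

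Lamin A/C was measured by 5 probes, all detected on all arrays, and each was somewhat higher in old than in young muscle, by 0.29 to 0.42 on the log2 scale. At the brightest probe the log2 level was 9.78, 10.42, 9.91, 10.12 and 10.33 on young replicates 1 to 5. It was 9.81, 9.90, 10.11, 9.70 and 10.69 on middle-aged and 10.73, 10.87, 10.30, 10.44 and 9.79 on old replicates 1 to 5. The groups overlapped, with old replicate 5 among the lowest arrays. Against middle-aged muscle the difference was 0.38 ± 0.21 (limma adjusted p = 0.459). Without old replicate 5 it was 0.54 (limma adjusted p = 0.118), and old against young muscle went from 0.32 to 0.47. Without middle-aged replicate 5 the difference between old and middle-aged muscle was 0.55 (limma adjusted p = 0.168). The 5 probes read the same gene and are not replicates of one another, and their r over the arrays ran from 0.392 to 0.941.

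Plectin had 14 probes, of which 3 passed the detection filter, 2 were detected on all arrays and 5 on none. The other 11 probes gave no value to compare. At the brightest probe the log2 level was 13.09, 13.29, 13.08, 13.12 and 13.45 on young, 12.90, 13.09, 13.26, 12.79 and 13.51 on middle-aged and 13.26, 13.36, 13.01, 13.07 and 12.9996 on old replicates 1 to 5. Old muscle differed by -0.06 ± 0.13 from young and by 0.03 ± 0.13 from middle-aged muscle (limma adjusted p = 0.947). The interval from -0.25 to 0.31 for the latter bounds the change at that probe.

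**Figure D3:**
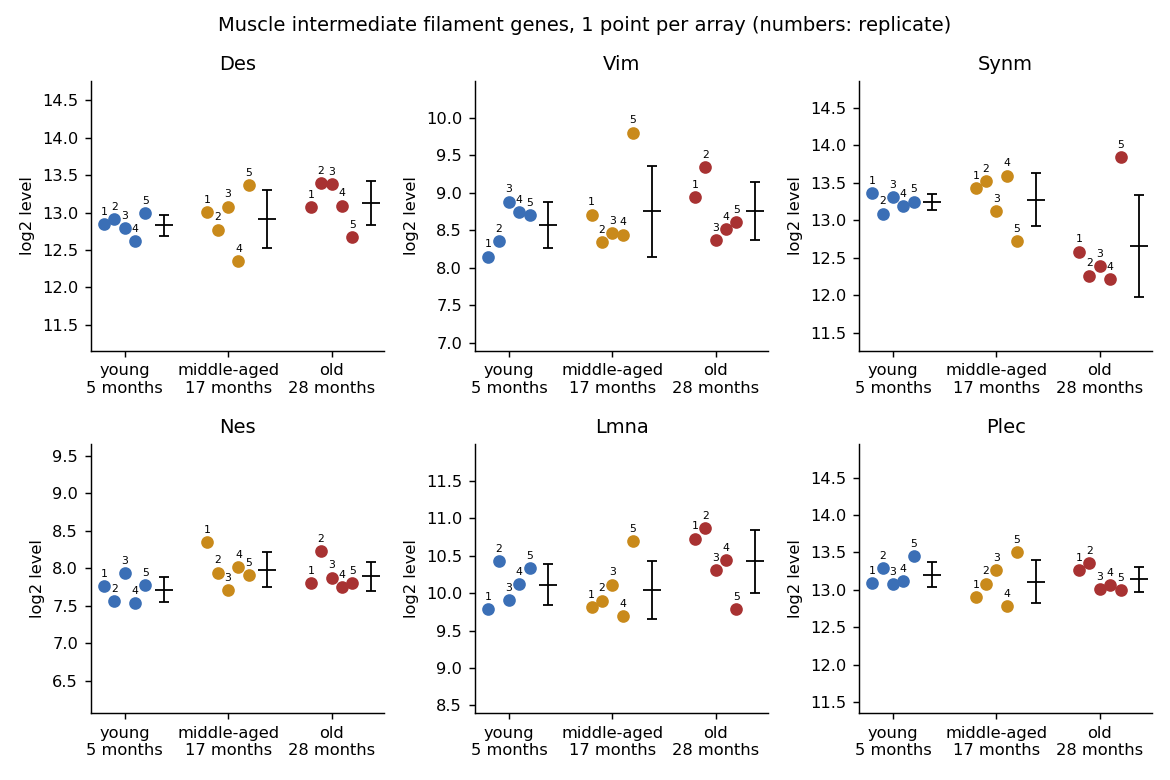
Log2 level of the standing probe of Des, Vim, Synm, Nes, Lmna and Plec on each array by age group, points numbered by replicate, with the mean and SD of each group beside them. In the Synm panel old replicates 1 to 4 sit between 12.22 and 12.58 and old replicate 5 at 13.84.

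Some pairs of the other filament genes were related from animal to animal at their standing probes. Of 15 pairs among Des, Vim, Synm, Nes, Lmna and Plec, 6 had an adjusted p of Pearson's r under 0.05, 4 with r above 0 and 2 below (permutation test, two-sided, 100000 permutations, Benjamini-Hochberg over the 15 pairs). Synm was low where Lmna was high, with r = -0.842 (permutation p = 0.00013, adjusted 0.00195) and Spearman's rho = -0.882 (permutation p = 5e-05, adjusted 0.00075). The r was -0.821 without the 2 arrays farthest from the median of Synm, old replicates 2 and 4, and -0.80 with group means removed.

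Synm and Des were opposed in the same way, with r = -0.79 (permutation p = 0.00044, adjusted 0.0033) and rho = -0.818 (permutation p = 0.00039, adjusted 0.00293). The r was -0.742 without middle-aged replicate 4 and old replicate 2 and -0.755 with group means removed. Des and Lmna were high on the same arrays, with r = 0.758 (permutation p = 0.00093, adjusted 0.00465) and rho = 0.721 (permutation p = 0.00342, adjusted 0.0171), and r was 0.64 without the same 2 arrays and 0.724 with group means removed. Lmna and Plec had r = 0.757 (permutation p = 0.00128, adjusted 0.0048) and rho = 0.699 (permutation p = 0.00486, adjusted 0.0182), and r was 0.754 without old replicates 1 and 2 and 0.87 with group means removed.

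The remaining 2 pairs were weaker by rank and without the 2 farthest arrays, though not with group means removed. For Vim and Lmna r was 0.617 (permutation p = 0.0113, adjusted 0.0339) and rho 0.546 (permutation p = 0.0377, adjusted 0.113), and r was 0.285 without middle-aged replicate 5 and old replicate 2 and 0.668 with group means removed. For Des and Plec r was 0.596 (permutation p = 0.0191, adjusted 0.0477) and rho 0.409 (permutation p = 0.131, adjusted 0.281), and r was 0.356 without middle-aged replicate 4 and old replicate 2 and 0.718 with group means removed.

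Brightness of the array moved with these genes. Of 6 relations tested between a gene's normalised level and log2 of the array's mean raw intensity, 4 had an adjusted p of r under 0.05. Des had r = -0.783 (permutation p = 0.00063, adjusted 0.00378) and rho = -0.679 (permutation p = 0.00668, adjusted 0.0372), with r = -0.573 without middle-aged replicate 4, the brightest array, and old replicate 2, the dimmest, and -0.817 with group means removed. Lmna had r = -0.64 (permutation p = 0.00976, adjusted 0.0293) and rho = -0.636 (permutation p = 0.0124, adjusted 0.0372), with r = -0.388 without those arrays and -0.664 with group means removed. Vim and Plec had r = -0.566 and -0.557 (permutation p = 0.0301 and 0.0309, both adjusted 0.0464), rho = -0.493 and -0.508 (permutation p = 0.0637 and 0.0564, both adjusted 0.0764), r = -0.459 and -0.269 without those arrays, and -0.569 and -0.579 with group means removed. Synm had r = 0.511 (permutation p = 0.0514, adjusted 0.0617) and rho = 0.511 (permutation p = 0.0547, adjusted 0.0764), with r = 0.247 without those arrays and 0.546 with group means removed.

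With the array's brightness removed from both genes by a straight line, r was -0.78 for Synm and Lmna, -0.729 for Synm and Des, 0.627 for Lmna and Plec, 0.537 for Des and Lmna, 0.402 for Vim and Lmna and 0.308 for Des and Plec. With median scaling in place of quantiles it was -0.592, -0.50, 0.488, 0.608, 0.301 and 0.264 in the same order. The opposition of Synm and Lmna also varied by probe, with r between -0.842 and -0.0151 over the 15 combinations of their probes, all below 0. At the other Plec probe detected on all arrays, r was -0.141 with the standing probe of Lmna and -0.304 with Des. The dimmest Plec probe past the filter gave 0.279 and 0.248 in the same order. The other Lmna probes had r = 0.295 to 0.481 with Des, and the other Synm probes -0.461 and -0.654. The relations with Plec thus hold for its standing probe, whose r with the other fully detected one was -0.0452.

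**Figure D4:**
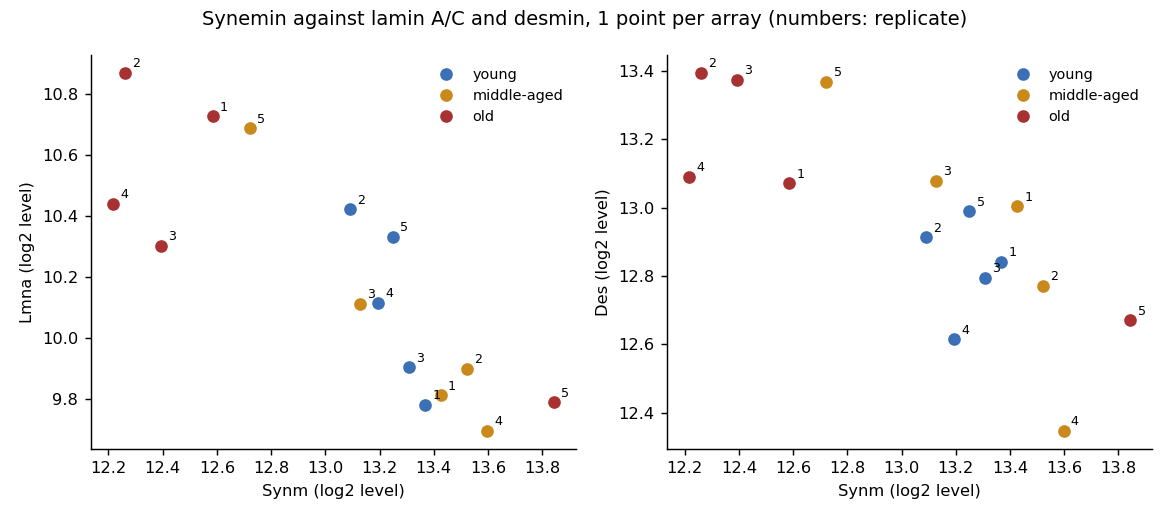
Log2 level of Lmna (left) and Des (right) against that of Synm at their standing probes, 1 point per array, coloured by age group and numbered by replicate. Both clouds fall from upper left to lower right, with r = -0.842 and -0.79 over the 15 arrays, and old replicate 5 lies at the far right.

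The named genes whose pattern over the 15 arrays was most like Krt18 were Rrad, a small GTPase of the RGK family, with r = 0.949, Gadd45a, a growth arrest and DNA damage gene, with r = 0.933, Sln, the sarcoplasmic reticulum calcium pump inhibitor sarcolipin, with r = 0.927, and Myh8, the perinatal myosin heavy chain, with r = 0.922. Krt8 came next with r = 0.913. These are descriptions without a test, since the points fall into a cluster of 10 younger arrays and one of 5 old arrays. The patterns most like Des were those of Setd3, an actin histidine methyltransferase (r = 0.924), Kiz, a centrosomal protein gene (r = 0.89), and Kat6b, a histone acetyltransferase (r = 0.885). Those most like Vim were Tuba1a, an alpha-tubulin (r = 0.892), Coro1c, a coronin that binds actin (r = 0.886), and Anxa2, annexin A2 (r = 0.87). Des and Vim themselves moved with the brightness of the array, and the part of brightness in these likenesses was not tested.

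Apart from Krt10, the rest of the keratin family was nearly silent in this tissue. Of 35 other keratins on the array, 2 passed the detection filter and 0 were called between any ages. Krt10, a keratin of the upper epidermis, was detected on all 15 arrays. Its mean log2 level was 8.40 in young, 8.22 in middle-aged and 8.04 in old muscle. Krt10 was at -0.36 in old against young muscle (limma adjusted p = 0.374) and Krt78 at -0.25 (adjusted p = 0.367). Of these keratins 28 were detected on no young array and 26 on no old array, and their summed level was 488 to 625.9 on young and 361.3 to 535 on old arrays. Among 13 other intermediate filament genes 4 were tested and 0 called, with Sync, the desmin-binding syncoilin, at 0.40 (limma adjusted p = 0.325) and Iffo2 at -0.23 (adjusted p = 0.653).

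Among genes that tie filaments to other structures 2 were called in old against young muscle, beside 3.31% of all features. All gene lists here were chosen with results of these arrays known. Their calls and p-values are descriptions and no independent evidence. Of 9 plakins and junction linkers tested, 1 was called in old against young muscle, Pkp2, a desmosomal plakophilin, higher by 0.85 ± 0.15 (limma adjusted p = 0.00451), and the list's median was 0.11. Of 19 partners of desmin and lamins tested, 1 was called, Ank1, whose short muscle form anchors the sarcoplasmic reticulum, at -0.87 ± 0.18 (limma adjusted p = 0.0139), with a list median of -0.01. Cryab, the small heat shock chaperone of desmin, was at 0.67 (limma adjusted p = 0.0555) and Dtna, a dystrobrevin, at 0.50 (adjusted p = 0.0869), named here after their values were seen. None of either list was called in old against middle-aged or middle-aged against young muscle.

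Among markers of cells that make keratins 1 of 8 tested genes was called in old against young muscle, beside 3.31% of all features. These lists too were chosen with results of these arrays known, so the call is a description. Of 13 epithelial markers on the array 5 were tested and 0 called, with Muc1 at -0.23 and Prss8 at -0.14 in old against young muscle, and 8 of the 13 were detected on no old array. Their summed level was 119.3 to 161.8 on young, 127.9 to 144.2 on middle-aged and 100.8 to 148.6 on old arrays. Of 12 keratinocyte markers 2 were tested, and 1 was called, Trp63, a p63 transcription factor gene, higher by 0.92 ± 0.23 (limma adjusted p = 0.0336). The defining basal keratins were at background, with Krt14 detected on 0 and Krt5 on 1 of the 15 arrays, and the summed level was 432.4 to 605 on young and 498.7 to 729.4 on old arrays. Of 5 mesothelial markers 1 was tested, Upk3b, at -0.03, and their summed level was 28.33 to 43.66 on young and 31.51 to 42.9 on old arrays.

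Several cell types other than the fibre make vimentin or desmin. Their genes are counted here in old against young muscle, where 3.31% of all 9470 features were called. Among 9 fibroblast genes 3 were called, all lower in old than in young muscle, with Col1a1, a chain of type I collagen, at -1.86, Col1a2, its other chain, at -1.35 and Thy1 at -0.99. The other 6 ran from -0.88 (Col3a1) to 0.28 (Lum), none past the test. Among 9 macrophage genes 4 were called, all higher, with Lgals3 (galectin-3) at 1.56, Lyz2 (lysozyme) at 1.16, C1qb, a complement subunit, at 0.96 and Adgre1, the F4/80 antigen, at 0.87. The summed macrophage level was 988.4 to 1692 on young and 2169 to 3992 on old arrays, and the part of either list in the level of Vim was not tested. Of 9 endothelial genes 0 were called, with Tie1 at -0.55 and Kdr at -0.29. Of 10 smooth muscle and pericyte genes 0 were called, Smtn at -0.25 and Des itself, which the list also holds. Of 4 Schwann cell genes 0 were called, Cnp at -0.41 and Mbp at 0.18.

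Of 12 denervation response genes tested, 8 were called in old against young muscle, all higher, beside 3.31% of all features, and 6 in old against middle-aged muscle, beside 0.317%. The other 4 in old against young muscle (Chrng, Myog, Musk and Hdac4) were at 0.31 to 1.46 and did not pass. Sln was higher by 4.08, Ankrd1, a stretch-responsive ankyrin repeat protein gene, by 2.78, the transcription factor gene Runx1 by 1.46 and Gadd45a by 1.27 than in young muscle. Of 5 satellite cell and new fibre genes tested, 2 were called in each of these comparisons, Myh8 at 2.10 and Ncam1, a neural cell adhesion molecule gene, at 1.06 in old against young muscle. Myod1, Myog and Chrng did not pass, at 0.08, 0.31 and 1.46, and Pax7, Myf5 and Mymk were detected on no array. Chrng, Myog and Ncam1 belong to both lists. The summed denervation level was 3742 to 4876 on young, 4529 to 4860 on middle-aged and 8501 to 18010 on old arrays, and that of satellite cells and new fibres 225.1 to 271.1, 241.9 to 318.4 and 339.1 to 1316. Old replicate 3, highest for Krt18 and Krt8, had the top summed level of both lists. Old replicate 5 had the bottom one among old arrays, with the lowest log2 level of Krt18 (6.77) but not of Krt8, which was lowest on old replicate 4 (5.75), and the lowest raw Krt18 was on old replicate 2. Old replicate 3 was extreme in other lists as well. Its summed level was the highest of all arrays for keratinocytes (729.4), other intermediate filaments (762.1) and muscle fibre genes (417700). It was the lowest of all for fibroblasts (9336), endothelial cells (2980), Schwann cells (563.4) and other keratins (361.3). All these lists were chosen with results of these arrays known, so their counts are no independent evidence. Their part in the keratin levels was not tested.

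**Figure D5:**
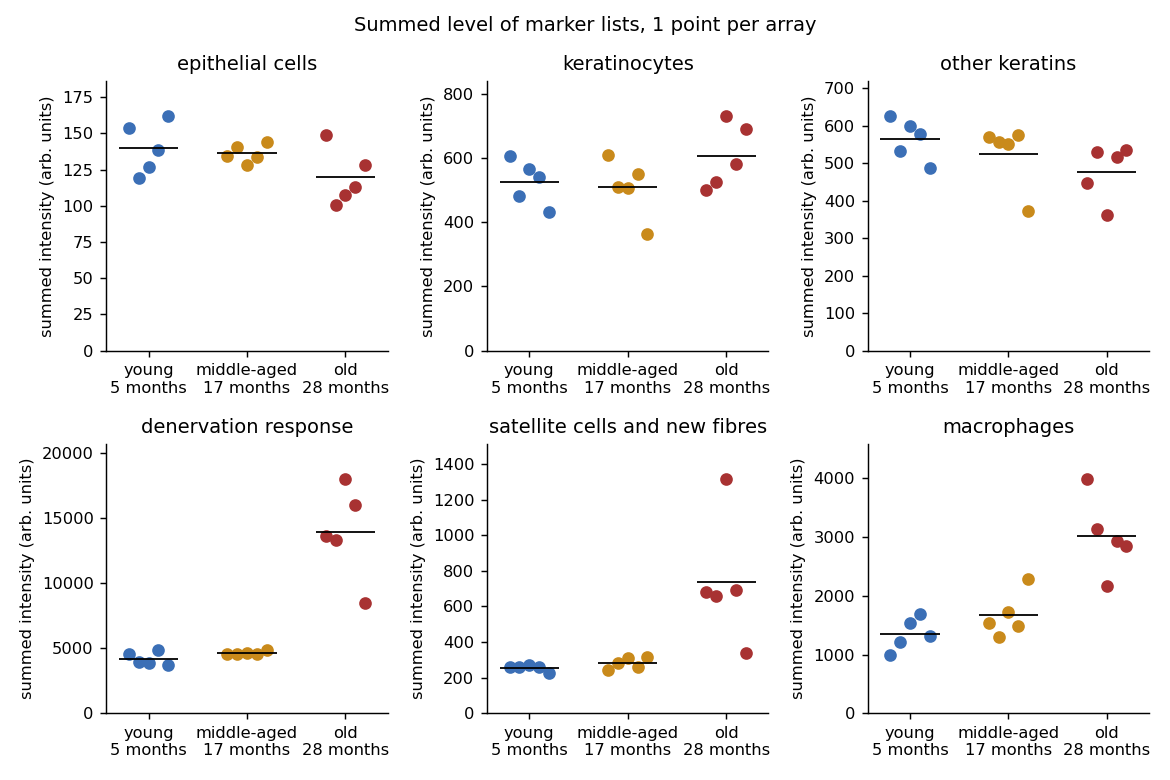
Summed background-corrected and normalised intensity in arbitrary units of 6 gene lists on each array by age group, 1 point per array with a line at the group mean. The denervation response lists 8501 to 18010 on old against 3742 to 4876 on young arrays, while the epithelial list overlaps between all groups.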

How the data were processed

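Total RNA of 15 gastrocnemius muscles was amplified, labelled and hybridised to bead arrays by the authors, who read them with GenomeStudio 2011.1. Their deposited table holds 1 raw intensity for each probe on each array, neither background-subtracted nor normalised, beside a detection p-value. They also deposited a score per probe, the natural log of the intensity minus the array mean over the array's standard deviation. Recomputed, it matched within 0.000924. The intensity and detection p-value columns were used, and the deposited score served as an alternative. No slide or scan was named in the sources used here, so neither could be tested as a batch, and precision is limited by how many arrays there are.

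Of 25697 probes 23978 had 1 symbol, and 1719 were unnamed here. In R 4.3.3, limma 3.58.1 was used to correct and normalise intensities (neqc, background from the detection p-values, offset 16, quantiles). Probes detected on at least 5 of 15 arrays were kept (12552), and the one with the highest mean stood for its gene, giving 9470 features. A mean per age group was fitted to all 15 arrays with lmFit and eBayes with an intensity trend. Tests were two-sided, adjusted by Benjamini-Hochberg over the 9470 features and called under 0.05. The fit was tested on simulated data. Folds written "at least" compare the old mean with the lowest detected signal of each younger array. Summed levels of a list add the corrected and normalised intensities of its genes on an array, less the offset.

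The members and gene lists were chosen with earlier results of these data known. Named genes were all members, up to 4 called genes of each list or the 2 with the lowest p in old against young muscle, the 5 genes most correlated with Krt18 and the 3 most correlated with Des and with Vim. Genes of slow fibres and Myh1 were named after their values were seen. Alternatives were other normalisations and filters, every probe as a feature, array weights, a replicate block, fits of the 10 arrays compared, each array left out, and the thresholds of the methods on Z scores. The methods do not name the test behind their p, and a two-sided t-test was taken here, called the methods' t-test. Those on the correlations (scaling, probes, array brightness) were added after the data were seen. The labels give same-numbered arrays of different ages nothing in common but the number.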

Additional observations from a re-analysis of the deposited data

Results flagged for a closer look

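At 6 of 51 combinations of probe and age group 1 array stood far from the other 4, and chance alone would give about 1 in 20 combinations such an array. Synm on old replicate 5 had a log2 level of 13.84 against 12.22 to 12.58 on the other old arrays. Vim on middle-aged replicate 5 had 9.80 against 8.34 to 8.71 on the others of its group. Nes on old replicate 2 had 8.23 at the brighter probe against 7.74 to 7.87, and at the dimmer probe young replicate 2 had 4.88 against 5.54 to 5.72. One Lmna probe had 7.82 on middle-aged replicate 4 against 8.11 to 8.22, and 1 Plec probe had 9.58 on old replicate 3 against 10.14 to 10.29. No array was flagged for Des or for either keratin, though Krt8 on old replicate 3 had 7.59 against 5.75 to 6.31 on the other old arrays. For Krt18 the step from 17 to 28 months exceeded that from 5 to 17 months by 2.54 on the log2 scale, with a late step of 2.63 and an early step of 0.08. These are fitted values against groups at background, not measured folds, and the gene was picked for its old arrays.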

How the results depend on the processing

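No member reversed its direction at a call under any alternative. Of the single values in settings other than leaving out an array, 360 kept their side of the threshold or their level, 1 lost a call, 3 gained one and 4 moved. The single lost call was Krt8 in old against middle-aged muscle when only the 10 arrays compared entered the fit. Of the values with an array left out, 476 kept their side or level, 3 gained a call and 1 moved.

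The count of 2 members in old against young muscle became 0 when detection on all 15 arrays was required, which removes both keratins from the test, 1 with the methods' t-test and 0 after Benjamini-Hochberg adjustment of it. The single gene of the methods' t-test was Synm, since the keratins miss its minimum of average intensity. The count of 2 in old against middle-aged muscle became 0 with detection on all 15 arrays, 1 with only the 10 arrays compared, and 0 with the methods' t-test, before and after adjustment. The count of 1 for the late against the early step became 0 with detection on all 15 arrays and 2 with array weights, the second being Krt8. Leaving out 1 array gave 2 to 3 members in old against young and in old against middle-aged muscle, the 3 coming without old replicate 5 through Synm. It gave 0 in every case for middle-aged against young muscle, and 1 to 2 for the late against the early step, the 2 coming without old replicate 3 through Krt8. Counts over all features moved more. In old against young muscle 313 became 136 with median scaling, 870 with array weights, 178 with 10 arrays, 764 with the methods' t-test and 13 after its adjustment, and 154 to 717 with 1 array left out. In old against middle-aged muscle 30 became 16 with detection on all arrays, 468 with weights, 15 with 10 arrays, 366 and 0 with the methods' t-test and its adjustment, and 15 to 313 with 1 array left out. The 717 and the 313 came without old replicate 5. In middle-aged against young muscle 1 became 2 with every probe a feature or a replicate block, 77 with weights, 17 with 10 arrays, 437 and 0 with the methods' t-test, and 1 to 8 with 1 array left out. For the steps 2 became 5 with raw intensities, Z scores or deposited scores, 1 with detection on all arrays, 16 with weights, and 1 to 9 with 1 array left out. The causes of these shifts in the count over all features were not tested.

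With the replicate number as a block the members called were 2 in old against young, 2 in old against middle-aged, 0 in middle-aged against young and 1 for the steps, as without it. Same-numbered arrays had correlations of their deviations from -0.497 to 0.403, and 5 of 15 arrays correlated best with their own number. No chance value was computed for that count, so it does not decide whether same-numbered arrays were processed together.

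Krt18 and Krt8 lie near background in younger muscle, which bounds how precisely a fold can be given, and Krt19 and 11 of 14 Plec probes gave no usable signal. Each gene rests on 5 animals per age, 1 strain and 1 sex.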
